A study of Mus musculus with 4 samples.

Results

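The subject is the set of nuclear genes for the respiratory chain in mature white adipocytes of the mouse, compared between fat of the skin and fat of the groin. Members were all genes whose symbol starts with Nduf, Uqcr or Atp5, those starting with Cox4 to Cox8, and the Sdha, Sdhb, Sdhc and Sdhd genes. The thermogenic isoforms Cox8b and Cox7a1 were left out of the set. This gave 89 members among the 18781 genes of the deposited table, with 36 in complex I, 4 in complex II, 8 in complex III, 16 in complex IV, 15 in complex V and 10 assembly factors or relatives that are no subunits. Dermal adipocytes, titled dWAT, came from dorsal skin and gave 2 libraries. Inguinal adipocytes, titled sWAT, came from the fat pad of the groin and also gave 2 libraries. All mice were C57BL/6 with no further genotype or treatment given, sampled at postnatal day 30, and the labels do not say how many animals went into a library or whether libraries came from separate animals. A p-value here thus reflects how far these libraries differ within a depot, a spread that could be technical. In both depots the cells were mature adipocytes freed by enzyme digestion and collected by flotation, a step that can carry along attached cells and free RNA.

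The respiratory chain lies in the inner mitochondrial membrane. Complexes I and II pass electrons from NADH and succinate to ubiquinone, complex III passes them on to cytochrome c, and complex IV delivers them to oxygen. Complexes I, III and IV pump protons as they do so, and complex V, the ATP synthase, makes ATP as the protons flow back through it. White adipocytes hold fewer mitochondria than brown or beige adipocytes, which use the same chain to make heat. Some core subunits of complexes I, III, IV and V are encoded by mitochondrial DNA. None of these was found in the deposited table by symbol, so they were not analysed here.

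Promoter sequence was examined because respiratory chain promoters are known for sites of NRF1, ETS factors, YY1 and the oestrogen-related receptors. RefSeq windows of 300 bases (250 before to 50 after the start, GRCm38.p6) were found for 72 of the 89 members and 9550 of the tested genes, and were searched on both strands for 4 strings of letters, none of which contains another. The NRF1 letters GCGCANGCG occurred in 22 of the 72 member windows (30.6%) and in 15.2% of the windows of tested genes. The YY1 letters AAGATGGC occurred in 10 (13.9%), against 5.25% of tested genes, and 7 of those 10 were complex I genes. The ETS letters CCGGAAG occurred in 17 (23.6%), against 19.8% of tested genes, and the oestrogen-related receptor letters TCAAGGTCA in Atp5g3 and Sdhd, 2 windows (2.78%), against 0.293%. By complex, the NRF1 letters were found in 8 of 32 windows of complex I, 2 of 3 of complex II, 2 of 5 of complex III, 1 of 11 of complex IV, 7 of 14 of complex V and 2 of 7 of assembly factors. These are matches of letters, and binding was not measured. Promoter bases of Ndufs5, Ndufs6, Uqcrh and Atp5g3, all members with a match, are printed where these genes are described. They run 5′ to 3′ on the gene's own strand, with the matched letters in capitals. For Ndufs5, Uqcrh and Atp5g3 they run up to the most upstream annotated start. A match past that start is shown with the bases around it. Of the members called lower below, Uqcrc2, Uqcrb and Cox6c had no match to any of the 4 strings, or no window to search.

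Most respiratory chain genes lay somewhat lower in dWAT than in sWAT adipocytes, but few passed the test gene by gene. Expression is given as CPM, read counts that the authors scaled for library size, and limma was run on log2(CPM + 0.5) for genes that reached 1 CPM in 2 or more of the 4 libraries. Of the 89 members 86 passed that filter. At a Benjamini-Hochberg adjusted p under 0.05 over all genes, limma called 6 members lower and 0 higher in dWAT. The 6 were Ndufs6 and Ndufs5 of complex I, Uqcrc2, Uqcrb and Uqcrh of complex III, and Cox6c of complex IV. They made up 6.98% of the tested members, against a background of 8.80% of all 12797 tested genes called lower. No member was called higher (0%), against 7.56% of all tested genes. At an unadjusted limma p under 0.05 there were 28 of the 86 members lower and 2 higher. Among all 12797 tested genes 4164 passed that threshold, 2077 of them lower. On the recovered reads edgeR called 7 members lower (8.14%, against 8.85% of all tested genes). DESeq2 called 9 lower (10.5%, against 9.08%). Both called 0 members higher, against 7.21% of all tested genes with edgeR and 6.43% with DESeq2.

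Most members had a negative value, called or not. The median log2 fold change of dWAT over sWAT was -0.29 over the tested members and 0.02 over all tested genes. The value was negative for 72 of the 86 members (83.7%) and for 48.6% of all tested genes. Both dWAT libraries lay below both sWAT libraries for 50 members (58.1%), against 30.1% of all tested genes. Both dWAT libraries lay above both sWAT libraries for 7 members (8.14%), against 31.6% of all tested genes, and the depots overlapped for the other 29. Summed over all members, the chain reached 11523 and 11228 CPM in the dWAT libraries, against 15875 and 12769 CPM in the sWAT libraries. The dWAT libraries lay close together and below both sWAT libraries, which differed from each other by more than the lower of them differed from dWAT.

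The first sWAT library stood apart from the others on these genes. It held the highest value of the 4 libraries for 69 of the 86 tested members (80.2%), against 22.8% of all tested genes. Without it the median over the members was -0.11 (all genes 0.02). In that fit 59 of 86 members were negative, against 6164 of all 12797 tested genes. Without the second sWAT library the median was -0.48 (all genes 0.004). The median was -0.35 without the first dWAT library and -0.26 without the second. With all 4 libraries but no intensity trend in the variance, 0 members were called in either direction. Of all tested genes 6.84% were then called lower and 6.38% higher. Leaving out a library leaves its depot with 1, which is then assumed to vary like those of the other depot. With 2 libraries per depot, what sets the first sWAT library apart was not tested.

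**Figure D1:**
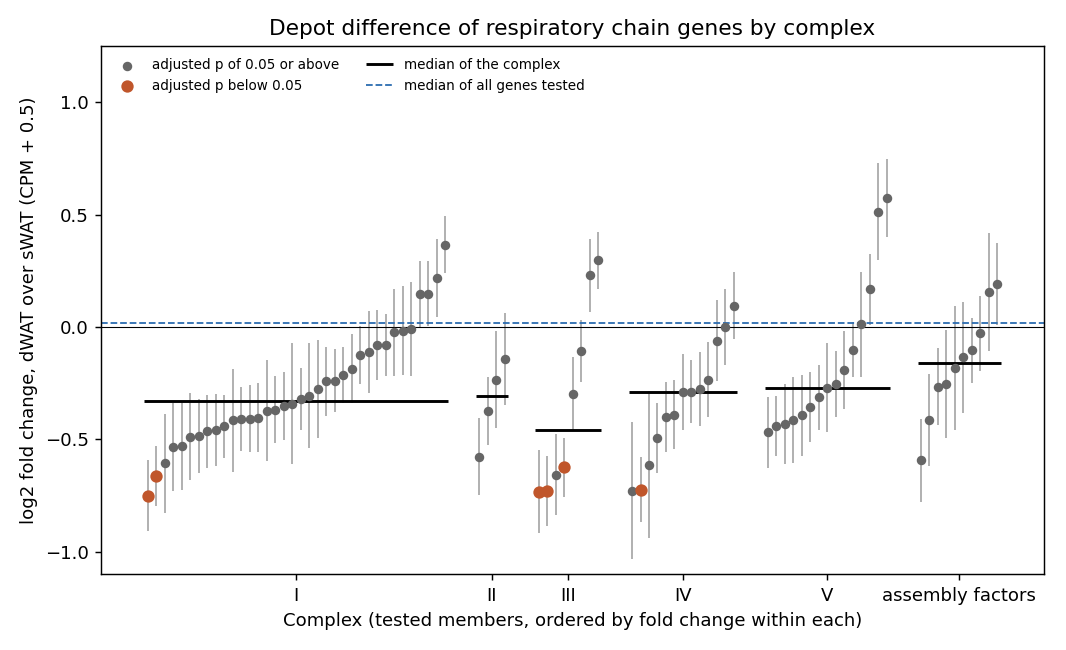
Fitted log2 fold change of dWAT over sWAT, on the log2(CPM + 0.5) scale, for the 86 tested members, grouped by complex and ordered within each; bars are the standard error of the fit, orange marks an adjusted p below 0.05, and black lines are medians. Most points lie below 0, and the 3 c ring genes lie at the upper right of complex V. The median of the complex III members, which do not include Cyc1, is the lowest at -0.46.

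**Figure D2:**
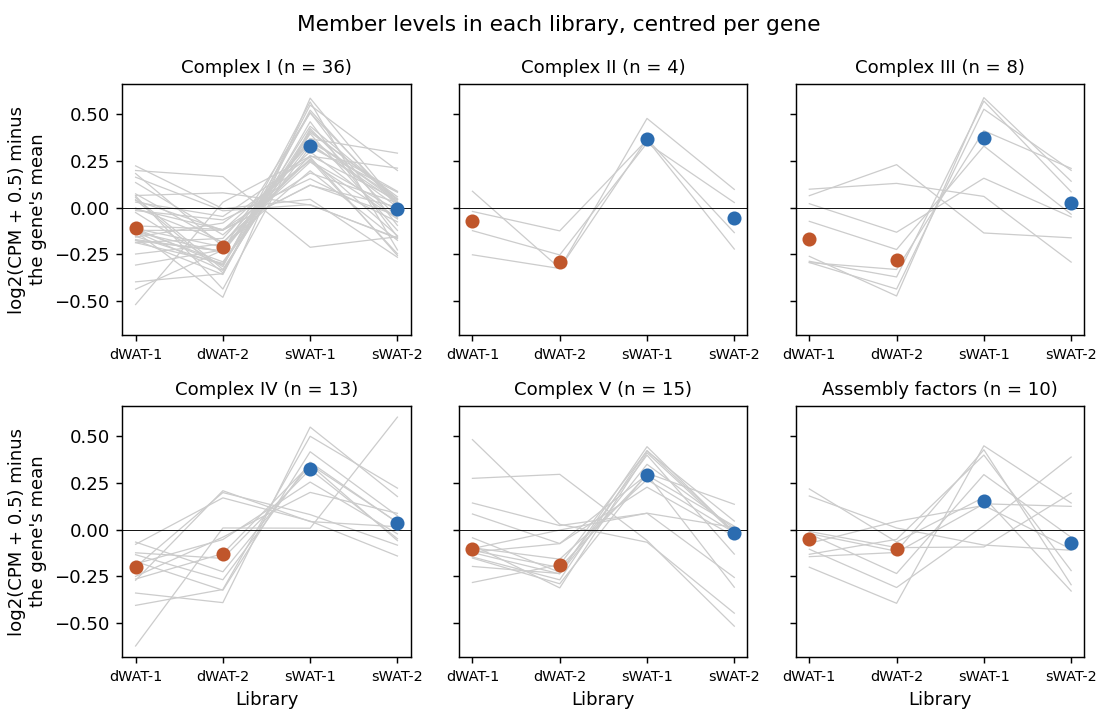
Level of each tested member in the 4 libraries, as log2(CPM + 0.5) minus the gene's mean over the libraries, with one panel per complex, dWAT left of sWAT; thin grey lines join the values of a gene and points are medians, orange for dWAT and blue for sWAT. In complexes I, II, III, IV and V the first sWAT library has the highest median, and the median of the second lies between it and both dWAT libraries.

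The depots also carried unequal amounts of RNA from marker genes of other cells. The markers of the labelled cells were present in both depots, where 12 adipocyte genes summed to 46455 and 42867 CPM in dWAT and 47967 and 43863 CPM in sWAT. These sums were alike, but single genes were not, and 2 of the 12 were called higher in dWAT. Plin1, a coat protein of lipid droplets, had 1116 and 1318 CPM in dWAT and 646 and 600 CPM in sWAT (limma adjusted p = 0.0117), and the hormone gene Lep was the other. Genes of brown and beige adipocytes summed to 104 and 90.1 CPM in dWAT and 270.4 and 306 CPM in sWAT, with 7 of 9 tested called lower. Among them Ucp1, the uncoupling protein of thermogenic adipocytes, had 1 read in the first dWAT library and 0 in the second, against 26.4 and 61.6 CPM in sWAT. Thermogenic genes were thus read in both sWAT libraries, with Ucp1 at or near 0 in dWAT. Endothelial genes summed to 450.4 and 486 CPM in dWAT and 1557 and 2355 CPM in sWAT, with 10 of 10 lower. Macrophage genes summed to 1679.7 and 1588 CPM in dWAT and 557 and 513 CPM in sWAT, with 10 of 10 higher. Red blood cell genes summed to 63.2 and 36.2 CPM in dWAT and 151 and 286 CPM in sWAT, with 4 of 4 lower once symbols that held identical values in every library were counted once. For all 3 of these lists the dWAT and sWAT sums did not overlap. Keratinocyte genes summed to 84.0 and 53.7 CPM in dWAT and 26.2 and 18.8 CPM in sWAT, with 4 of 6 tested higher. Skeletal muscle genes summed to 103 and 85.5 CPM in dWAT and 92.1 and 56.0 CPM in sWAT, with 1 of 9 tested higher. Smooth muscle and pericyte genes summed to 262 and 243 CPM in dWAT and 277 and 309.7 CPM in sWAT, with 4 of 5 tested lower and 1 higher. The brown and beige, endothelial, red blood cell, and smooth muscle and pericyte sums were higher in the second sWAT library than in the first. The adipocyte, macrophage, keratinocyte and skeletal muscle sums were higher in the first, as was the respiratory chain sum. The part of these cells in the results on the respiratory chain was not tested, and in bulk RNA fewer cells of a type and less RNA per cell cannot be told apart.

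Complex I, the NADH dehydrogenase and the largest complex, had 36 members, all of which passed the filter. Its median log2 fold change was -0.33, with 32 of 36 negative, 2 called lower and 0 higher. The 7 core subunits, which include those that carry the flavin and the iron-sulfur clusters, were all negative with a median of -0.37 and 0 calls (4 at an unadjusted p under 0.05, 0 with edgeR and Ndufs1 alone with DESeq2). The 29 accessory subunits had a median of -0.32 and included both calls. Ndufs1, the large iron-sulfur subunit, had 197 and 155 CPM in dWAT and 324 and 219 CPM in sWAT, without overlap (log2 fold change -0.61 ± 0.22 SE, limma adjusted p = 0.114). Ndufs1 was chosen for naming after its values were seen, and its exons overlap those of Eef1b2 and Ino80dos on the opposite strand. Complex I genes summed to 3058 and 2824 CPM in dWAT and 4155 and 3277 CPM in sWAT, so that both dWAT libraries lay below both sWAT libraries.

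Ndufs6, a zinc-binding accessory subunit of the arm that reaches into the matrix, lies at chr13:73319838-73328542 (positions of whole genes are from GENCODE M21 on GRCm38). It had 42.6 and 43.9 CPM in the dWAT libraries, against 82.6 and 64.7 CPM in the sWAT libraries. The depots did not overlap, and the first sWAT library was the highest. Ndufs6 had a log2 fold change of -0.75 ± 0.16 (SE) with an adjusted p of 0.0251 from limma. Its exons overlap those of Mrpl36 on the opposite strand, and whether reads were counted by strand is not stated in the sources used here, so the pair may share reads. Ndufs5, an accessory subunit on the side of the intermembrane space, lies at chr4:123712710-123718202 and overlaps no opposite-strand exon. It had 75.9 and 87.8 CPM in dWAT, against 133 and 126 CPM in sWAT. Here too both dWAT libraries lay below both sWAT libraries, and the sWAT libraries were close to each other. Its log2 fold change was -0.66 ± 0.13 (SE), with an adjusted p of 0.0222 from limma. The promoter windows of both hold an NRF1 match, in reverse in Ndufs6, which also holds a YY1 match. In Ndufs6 both matches lie past the most upstream annotated start, within the span of the gene. The 190 bases searched before that start hold no match and are not printed. For Ndufs5 the bases before its start are shown (chr4:123718203-123718436, minus strand), and for Ndufs6 30 bases around each match (chr13:73328478-73328507 and chr13:73328433-73328462, minus strand).
Ndufs5: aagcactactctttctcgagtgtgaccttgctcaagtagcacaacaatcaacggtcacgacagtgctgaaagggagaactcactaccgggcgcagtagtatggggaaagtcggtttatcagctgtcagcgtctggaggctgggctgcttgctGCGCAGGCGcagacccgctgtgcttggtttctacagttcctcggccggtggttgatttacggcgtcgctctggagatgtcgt
Ndufs6 NRF1: gactgctgtgCGCCTGCGCcggcacttggt
Ndufs6 YY1: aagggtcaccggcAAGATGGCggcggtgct

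Ndufb9, an abundant accessory subunit of the membrane arm, had 205 and 206 CPM in dWAT and 275 and 215 CPM in sWAT (log2 fold change -0.24 ± 0.15 SE, limma adjusted p = 0.328). Its dWAT libraries lay below both sWAT libraries, without passing the test. The 4 members with a positive value were Ndufb6, Ndufb11, Ndufa11 and Ndufa7, chosen for naming after their values were seen. The highest of them was Ndufa7, with 54.1 and 52.8 CPM in dWAT and 40.5 and 42.2 CPM in sWAT (log2 fold change 0.37 ± 0.13 SE, limma adjusted p = 0.104). Per kilobase of annotated exon, complex I levels ran from 261 CPM per kb for Ndufa1 to 4.25 CPM per kb for Ndufb2, a length that counts the exons of every annotated transcript and so understates genes with long rare ones.

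Complex II, the succinate dehydrogenase shared with the citrate cycle, has no mitochondrially encoded subunit. All 4 genes were negative, with a median log2 fold change of -0.31 and 0 calls by limma in either direction (2 lower at an unadjusted p under 0.05, 0 by edgeR, and Sdha alone by DESeq2). Sdha, the flavoprotein that oxidises succinate, had 551 and 524 CPM in dWAT and 915 and 703 CPM in sWAT. Both dWAT libraries lay below both sWAT libraries, with the first sWAT library the highest. Its fitted log2 fold change was -0.58 ± 0.17 (SE), with a limma adjusted p of 0.0673. Sdhb, the iron-sulfur subunit, had 136 and 125 CPM in dWAT and 189 and 151 CPM in sWAT (log2 fold change -0.38 ± 0.15 SE, limma adjusted p = 0.144). The membrane anchors overlapped between the depots. Sdhc had 90.5 and 84.1 CPM in dWAT and 118 and 78.6 CPM in sWAT, and Sdhd had 110.4 and 82.8 CPM in dWAT and 134 and 94.6 CPM in sWAT. Per kilobase the order of the mean levels was Sdha (163 CPM per kb), Sdhd (85.7), Sdhb (67.1) and Sdhc (28.6).

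Complex III, the cytochrome bc1 complex, had the lowest median of the 5 complexes, at -0.46 over its 8 members. That rank depends on the symbol rule, which leaves out Cyc1, a further complex III subunit with a log2 fold change of -0.14. Of the 8 members 6 were negative, 3 were called lower and 0 higher, and 5 had both dWAT libraries below both sWAT libraries. Uqcrc2, a large core protein on the matrix side, lies at chr7:120635176-120659524. It had 285 and 246 CPM in dWAT, against 514 and 377 CPM in sWAT. The depots did not overlap, and the sWAT libraries were far apart. Its log2 fold change was -0.73 ± 0.18 (SE) with a limma adjusted p of 0.0430. It was called in 8 of the 14 alternatives, fewer than the other 5 called members. With all 4 libraries it was lost under quantile normalization (limma adjusted p = 0.0687) and without the filter (0.0675). It was also lost with no intensity trend, as were the other 5. The remaining losses were in fits with a library left out, where its log2 fold change ranged from -0.96 to -0.51. Uqcrb, a small subunit known as the ubiquinone-binding protein, lies at chr13:66900617-66905378. It had 258 and 233 CPM in dWAT, against 456 and 363 CPM in sWAT. Again both dWAT libraries lay below both sWAT libraries, at 60.0% of the sWAT mean. For this gene the log2 fold change was -0.73 ± 0.16 (SE) with a limma adjusted p of 0.0264. Uqcrh, the acidic hinge protein that touches cytochrome c1, lies at chr4:116066965-116075071. It had 163 and 158 CPM in dWAT, against 266 and 231 CPM in sWAT. The dWAT libraries were close to each other and lay below both sWAT libraries. Its log2 fold change was -0.62 ± 0.13 (SE) with a limma adjusted p of 0.0246, and 0.0501 under quantile normalization in a range of 0.000571 to 0.161 over the alternatives. Uqcrc2 shares exon sequence on the opposite strand with Pdzd9 and Uqcrb with Gm10767, whereas Uqcrh shares none. The promoter of Uqcrh holds an ETS match in reverse just before its start (chr4:116075072-116075320, minus strand).
Uqcrh: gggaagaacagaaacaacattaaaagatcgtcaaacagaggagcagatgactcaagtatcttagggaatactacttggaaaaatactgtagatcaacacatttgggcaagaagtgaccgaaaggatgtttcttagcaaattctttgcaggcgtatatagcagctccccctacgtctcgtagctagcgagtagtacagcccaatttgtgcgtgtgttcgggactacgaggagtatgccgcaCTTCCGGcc

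The other complex III genes ranged from below to above 0. Uqcrfs1, the Rieske iron-sulfur protein, had 89.0 and 84.0 CPM in dWAT and 162 and 115 CPM in sWAT, without overlap (log2 fold change -0.66 ± 0.18 SE, limma adjusted p = 0.0557), and edgeR and DESeq2 called it lower. Uqcr11 and Uqcrq, small accessory subunits, were the 2 positive genes, at log2 fold changes of 0.30 and 0.23 with limma adjusted p-values of 0.165 and 0.378. Uqcr11 had 96.7 and 109 CPM in dWAT and 84.1 and 82.6 CPM in sWAT, so that its dWAT libraries lay above both sWAT libraries. Per kilobase the levels ran from 374 CPM per kb for Uqcrb to 21.8 CPM per kb for Uqcrq. Uqcrfs1, Uqcr11 and Uqcrq were chosen for naming after their values were seen.

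Complex IV, cytochrome c oxidase, had 16 members, of which 13 passed the filter. The median log2 fold change was -0.29, with 11 of 13 negative, 1 called lower and 0 higher. Cox6c, a small nuclear-encoded subunit, lies at chr15:35925886-35938246, where its exons overlap Vps13b on the opposite strand. It had 238 and 253 CPM in dWAT, against 447 and 369 CPM in sWAT. Both dWAT libraries lay below both sWAT libraries. Its log2 fold change was -0.72 ± 0.15 (SE) with a limma adjusted p of 0.0221. Cox7b, another small subunit, had 122 and 109.7 CPM in dWAT and 184 and 145 CPM in sWAT (log2 fold change -0.49 ± 0.16 SE, limma adjusted p = 0.0822). Cox8a, the common form of subunit VIII, had 312 and 371 CPM in dWAT and 339.9 and 298 CPM in sWAT. Its depots overlapped and its log2 fold change was 0.09 ± 0.15 (SE), with a limma adjusted p of 0.708. Per kilobase the levels of complex IV were led by Cox8a (533 CPM per kb), Cox6b1 (439) and Cox6a1 (318). Cox7a2, the common form of subunit VIIa, had 82.9 and 75.5 CPM in dWAT and 117 and 93.5 CPM in sWAT (log2 fold change -0.40 ± 0.15 SE, limma adjusted p = 0.129).

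**Figure D3:**
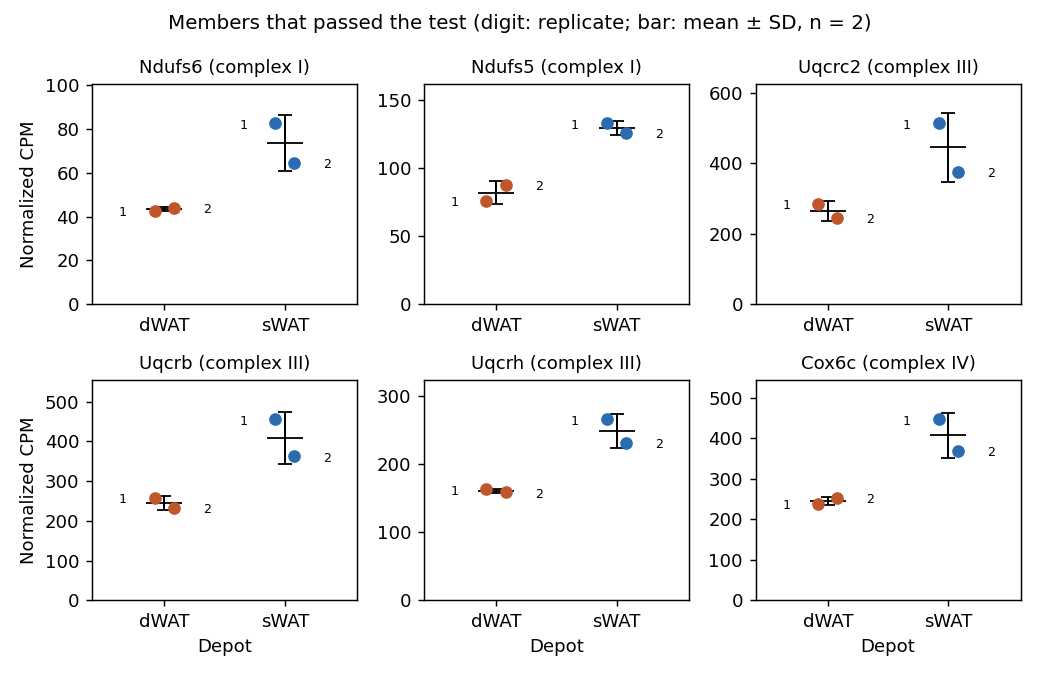
Normalized CPM of the 6 members that passed the test, per library, with dWAT left of sWAT; digits are replicate numbers and bars are the mean ± SD of 2 libraries. In each panel both dWAT points lie below both sWAT points, for example 42.6 and 43.9 against 82.6 and 64.7 CPM for Ndufs6.

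Several subunits of complexes IV and V exist as alternative isoforms. In the complex IV families Cox4i, Cox6a, Cox6b, Cox7b and Ndufa4 the common form held nearly all of the level in both depots. Shares of the Cox7a and Cox8 families were not compared, because Cox7a1 and Cox8b were left out of the set. Shares below are of the family's summed CPM per kb of exon. Cox4i1, the ubiquitous form, had 324 and 375 CPM in dWAT and 442 and 409 CPM in sWAT, whereas its counterpart Cox4i2, known from lung and from low oxygen, took 0.605% and 0.496% of the family in dWAT and 1.00% and 0.786% in sWAT. Those Cox4i2 shares rest on 11 and 10 reads in dWAT and 27 and 17 reads in sWAT, and its log2 fold change of -0.73 ± 0.31 (SE) did not pass the test (limma adjusted p = 0.157). The muscle form Cox6a2 had 3 and 3 reads in dWAT and 1 and 1 in sWAT, beside 184 and 257 CPM of its ubiquitous counterpart Cox6a1 in dWAT and 229 and 224 CPM in sWAT. Cox6b2, known from testis, had 4 and 4 reads in dWAT and 2 and 2 in sWAT, beside 255 and 281 CPM of Cox6b1 in dWAT and 391 and 315 CPM in sWAT. Cox7b2 had 0 reads in both dWAT libraries and in the first sWAT library, where 3 reads would be 0.273, 0.285 and 0.253 CPM, and 3 reads in the second sWAT library. These 3 isoforms did not pass the filter, and at so few reads no difference between the depots was detectable. Ndufa4, once counted in complex I and now placed in complex IV, had 129.6 and 116 CPM in dWAT and 173 and 130.3 CPM in sWAT. Its relative Ndufa4l2, which is induced by low oxygen, held 2.67% and 4.81% of the pair in dWAT and 3.28% and 6.58% in sWAT, so the depots overlapped.

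Complex V is the ATP synthase. Its 15 genes had a median log2 fold change of -0.27, with 11 negative and 4 positive, and 0 called in either direction by limma, edgeR or DESeq2 (3 lower and 1 higher at an unadjusted p under 0.05). Atp5b, the catalytic beta subunit, had 1541 and 1590.2 CPM in dWAT and 1961 and 1634 CPM in sWAT (log2 fold change -0.19 ± 0.17 SE, limma adjusted p = 0.490). Atp5a1, the alpha subunit, had 1031 and 947 CPM in dWAT and 1531 and 1132 CPM in sWAT (log2 fold change -0.41 ± 0.19 SE, limma adjusted p = 0.192). For each of them both dWAT libraries lay below both sWAT libraries. Atp5h, subunit d of the peripheral stalk that holds the catalytic head still, had 219.7 and 199.7 CPM in dWAT and 301 and 268 CPM in sWAT (log2 fold change -0.44 ± 0.13 SE, limma adjusted p = 0.0718). Per kilobase Atp5b (397 CPM per kb) and Atp5a1 (370.1) led complex V and Atp5g1 (5.87) was the lowest. The 4 peripheral stalk genes had a median of -0.42, the 5 genes of the catalytic head and central stalk -0.19, and the 3 accessory membrane subunits -0.36.

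The c ring of the ATP synthase, which turns as protons pass, had values of the opposite sign. It is built from copies of a single small protein that Atp5g1, Atp5g2 and Atp5g3 all encode after their differing import signals are removed. All 3 genes had positive log2 fold changes (median 0.51), whereas the other 12 genes of complex V had a median of -0.34 with 11 of 12 negative. Atp5g3 had 129 and 131 CPM in dWAT, against 103 and 74.6 CPM in sWAT. The dWAT values were close to each other and lay above both sWAT values. Its log2 fold change was 0.57 ± 0.17 (SE) with a limma adjusted p of 0.0727, in a range of 0.00295 to 0.253 over the alternatives. Atp5g1 had 39.4 and 28.7 CPM in dWAT and 26.8 and 20.5 CPM in sWAT, again without overlap (log2 fold change 0.51 ± 0.22 SE, limma adjusted p = 0.158). Atp5g2 had 68.5 and 63.0 CPM in dWAT and 65.9 and 51.9 CPM in sWAT, where the depots overlapped (log2 fold change 0.17 ± 0.16 SE, limma adjusted p = 0.518). None of the 3 passed the test by limma, edgeR or DESeq2 (1 higher at an unadjusted p under 0.05). Atp5g3 passed after scaling by library totals (adjusted p = 0.0370) and under quantile normalization (0.0429). Without the first sWAT library Atp5g3 (0.00421) and Atp5g1 (0.0478, in a range of 0.00782 to 0.609) both passed. Together the 3 genes made up 5.57% and 5.39% of the summed complex V CPM in dWAT and 3.45% and 3.26% in sWAT. This share compares genes within a library and is not moved by the scaling between libraries. For this share both dWAT libraries lay above both sWAT libraries. The grouping of complex V by part was made with these data known, and no test of the share is given. The promoter of Atp5g3, the most abundant of the 3 per kilobase, holds an oestrogen-related receptor match in reverse before the start (chr2:73911327-73911576, minus strand) and an NRF1 match in reverse after it, shown with the bases around it (chr2:73911294-73911323, minus strand).
Atp5g3: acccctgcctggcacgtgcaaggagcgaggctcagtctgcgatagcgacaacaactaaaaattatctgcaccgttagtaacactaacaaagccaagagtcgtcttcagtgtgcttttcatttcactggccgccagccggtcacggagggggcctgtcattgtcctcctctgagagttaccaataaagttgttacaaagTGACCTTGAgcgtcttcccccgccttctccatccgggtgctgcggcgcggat
Atp5g3 NRF1: agccgcaccgCGCTTGCGCgcccagcccca

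**Figure D4:**
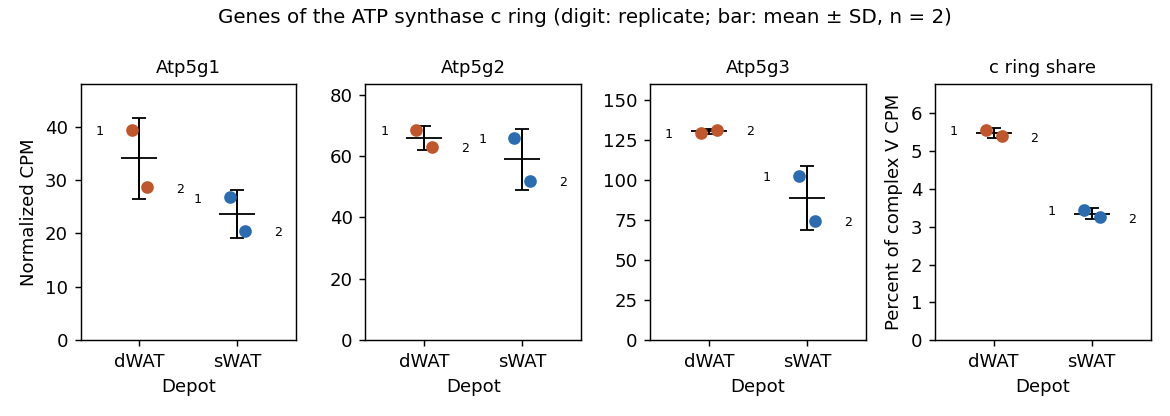
Normalized CPM of the 3 c ring genes, and their summed share of all complex V CPM in percent, per library, with dWAT left of sWAT; digits are replicate numbers and bars are the mean ± SD of 2 libraries. The share lies at 5.57% and 5.39% in dWAT and at 3.45% and 3.26% in sWAT, while the levels of Atp5g2 overlap.

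Within the c ring family Atp5g3 held the largest share of the level per kb, at 54.8% and 58.1% in dWAT and 51.2% and 49.3% in sWAT. Atp5g2 held 37.8% and 36.3% in dWAT and 42.8% and 44.7% in sWAT, and Atp5g1 held the remaining 7.41% and 5.63% in dWAT and 5.93% and 6.01% in sWAT. The Atp5g1 share depends on the length used, 4912 bases against 1675 for Atp5g2 and 2181 for Atp5g3. On CPM not divided by length it was 16.6% and 12.8% in dWAT and 13.7% and 13.9% in sWAT. The identity of the mature protein raises the question whether reads can be told apart between the genes, so the last 150 coding bases of each are shown. They were read from GENCODE M21 transcripts on GRCm38, of genes on chromosome 11 (Atp5g1), 15 (Atp5g2) and 2 (Atp5g3), and capitals mark the 39 positions at which the 3 genes are not all the same.
Atp5g1: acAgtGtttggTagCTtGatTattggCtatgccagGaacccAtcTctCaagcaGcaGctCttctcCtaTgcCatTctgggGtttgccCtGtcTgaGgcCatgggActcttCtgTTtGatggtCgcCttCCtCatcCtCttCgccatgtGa
Atp5g2: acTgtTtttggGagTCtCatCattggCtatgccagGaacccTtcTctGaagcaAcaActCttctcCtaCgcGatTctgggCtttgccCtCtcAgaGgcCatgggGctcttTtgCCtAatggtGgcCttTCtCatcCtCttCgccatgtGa
Atp5g3: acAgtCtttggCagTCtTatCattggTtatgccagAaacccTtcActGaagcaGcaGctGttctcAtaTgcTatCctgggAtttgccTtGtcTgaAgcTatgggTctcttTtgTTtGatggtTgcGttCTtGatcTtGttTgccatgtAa
Over the last 228 coding bases Atp5g1 and Atp5g2 shared 85.1% of positions, Atp5g1 and Atp5g3 79.8%, and Atp5g2 and Atp5g3 78.5%. The longest stretch without a difference was 21, 11 and 8 bases for the same pairs. Whether reads from processed pseudogenes or relatives were counted elsewhere depends on mapping settings that the sources used here do not state, and many respiratory chain genes have such pseudogenes.

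Assembly factors help to build the complexes without staying in them. The 10 members of this kind had a median log2 fold change of -0.16, with 8 negative, and 0 called by limma, edgeR or DESeq2 (1 lower at an unadjusted p under 0.05). The depots overlapped for 6 of the 10. Ndufaf4, a complex I assembly factor, had 15.5 and 13.5 CPM in dWAT and 24.6 and 19.8 CPM in sWAT, without overlap (log2 fold change -0.59 ± 0.18 SE, limma adjusted p = 0.0772). Ndufaf1, which acts in an early complex I intermediate, had 25.7 and 24.0 CPM in dWAT and 35.2 and 21.1 CPM in sWAT, so the dWAT values fell between the sWAT values. Cox7a2l, a factor for joining complexes III and IV, had 136 and 128 CPM in dWAT and 128 and 156 CPM in sWAT (log2 fold change -0.10 ± 0.14 SE, limma adjusted p = 0.665). Atp5sl, named for its likeness to another gene and no subunit of the synthase, had 11.6 and 9.96 CPM in dWAT and 12.7 and 16.5 CPM in sWAT (log2 fold change -0.41 ± 0.21 SE, limma adjusted p = 0.219).

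Other genes of oxidative phosphorylation outside the symbol rule were compared as fixed lists. A further 40 assembly factors had a median log2 fold change of -0.05, with 24 negative and 16 positive, and 0 called by limma, edgeR or DESeq2 (1 lower and 2 higher at an unadjusted p under 0.05). A list of 7 other tested subunits and electron carriers, which also counts the ATP synthase inhibitor Atpif1, had a median of -0.34. Atpif1 was its only positive gene (log2 fold change 0.28). Of the 7, limma and edgeR called 0 (4 lower at an unadjusted limma p under 0.05), and DESeq2 called Cycs alone. Cycs, the cytochrome c that links complexes III and IV, had 328 and 260.0 CPM in dWAT and 662 and 411 CPM in sWAT, without overlap but with the sWAT libraries far apart (log2 fold change -0.84 ± 0.25 SE, limma adjusted p = 0.0670). Cyc1, the heme subunit of complex III, had 88.3 and 75.7 CPM in dWAT and 103 and 78.8 CPM in sWAT, with overlap (log2 fold change -0.14 ± 0.17 SE, limma adjusted p = 0.621). Of 13 genes for ubiquinone synthesis and handling 1 was called lower and 0 higher, with a list median of -0.15. That gene was Coq10b, which binds ubiquinone, at 22.0 and 27.7 CPM in dWAT and 65.4 and 67.8 CPM in sWAT. Its sWAT libraries were close to each other and lay above both dWAT libraries, its log2 fold change was -1.41 ± 0.16 (SE), and its limma adjusted p was 0.00368.

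Among 18 tested transcriptional regulators of mitochondrial genes 3 were called lower and 1 higher in dWAT. Ppargc1a, the coactivator PGC-1alpha, which raises mitochondrial gene expression and is also on the brown and beige list above, had 14.6 and 10.7 CPM in dWAT and 29.6 and 31.9 CPM in sWAT. Both dWAT libraries were well below both sWAT libraries (log2 fold change -1.26 ± 0.19 SE, limma adjusted p = 0.00959). Gabpb1, a subunit of the ETS factor GABP, had 12.7 and 14.3 CPM in dWAT and 24.0 and 34.9 CPM in sWAT (log2 fold change -1.07 ± 0.22 SE, limma adjusted p = 0.0224). Its DNA-binding partner Gabpa had 93.0 and 92.6 CPM in dWAT and 114 and 132 CPM in sWAT without passing the test (log2 fold change -0.40 ± 0.13 SE, limma adjusted p = 0.0886). Esrrg, an oestrogen-related receptor of oxidative tissues, was low, at 0.546 and 0.664 CPM in dWAT and 1.94 and 2.91 CPM in sWAT (log2 fold change -1.39 ± 0.32 SE, limma adjusted p = 0.0344), and DESeq2 did not call it (adjusted p = 0.0764, in a range of 0.00276 to 0.126 over the alternatives). The depots did not overlap for any of these 4 genes, and the sWAT libraries were the higher. Its relative Esrra had 25.4 and 24.1 CPM in dWAT and 18.3 and 14.7 CPM in sWAT, the opposite order, without passing the test (log2 fold change 0.58 ± 0.17 SE, limma adjusted p = 0.0713). Polrmt, the RNA polymerase of mitochondria, was the gene called higher, at 23.3 and 19.2 CPM in dWAT and 9.88 and 12.5 CPM in sWAT (log2 fold change 0.90 ± 0.20 SE, limma adjusted p = 0.0290). Without the first dWAT library the calls of Gabpb1 (adjusted p = 0.0857, in a range of 7.73e-05 to 0.0857) and Polrmt (0.180, in a range of 0.00106 to 0.180) were lost, and that of Polrmt also without the second (0.0670). Gabpa shares exon sequence on the opposite strand with Atp5j, a complex V gene. Nrf1, which binds many respiratory chain promoters, had 13.0 and 14.8 CPM in dWAT and 13.8 and 21.0 CPM in sWAT, with overlap (limma adjusted p = 0.451). Tfam, the packaging and transcription factor of mitochondrial DNA, had 19.3 and 21.2 CPM in dWAT and 22.8 and 24.6 CPM in sWAT (limma adjusted p = 0.362). Of the 18 regulators 2 had their highest value in the first sWAT library, against 69 of the 86 members.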

How the data were processed

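The deposited signal values are gene counts that the authors divided by library size and a further factor (CPM). The submitters' processing notes list, with no role or order, TopHat2 2.0.12, Picard 1.127 and featureCounts of Subread 1.4.6, along with FastQC, bcl2fastq, edgeR and mm10. In each column 100% of values were whole multiples of the value of 1 read, within 0.001, which gave 10794480 and 10127125 reads in dWAT and 12730013 and 10165094 in sWAT. A level of 3 reads was 0.253 to 0.291 CPM, a floor that covers counting error only. Replicates correlated at 0.987 (dWAT) and 0.982 (sWAT) across genes and differed beyond sampling noise.

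Groups follow the sample titles. The 12797 genes that reached 1 CPM in 2 or more libraries entered a two-sided limma test (version 3.58.1, R 4.3.3) with an intensity trend. The scale was log2(CPM + 0.5), p-values were adjusted by Benjamini-Hochberg over all of these genes, and the script was tested on simulated data. A fold change on this scale understates low genes. Alternatives were edgeR 4.0.16 and DESeq2 1.42.0 on recovered reads, other scalings, pseudocounts and filters, no trend, and each library left out. The text names every member called, per complex the 2 lowest by adjusted p and the 2 most abundant, and fixed isoform families and regulators; 1 gene of this rule is not reported here. Members, lists and this rule were chosen with earlier results of these data known. Sequences came from RefSeq windows (GRCm38.p6) and GENCODE M21 (GRCm38, the same assembly as mm10), which placed 88 of 89 members.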

Additional observations from a re-analysis of the deposited data

How the results depend on the processing

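The 6 members called lower kept a negative fold change under all 14 alternatives. Under no intensity trend 0 members were called lower, and their adjusted p-values lay between 0.0542 and 0.0849. Scaling by library totals, which moved the median of all genes to 0.10, and quantile normalization each called 1 member higher, Atp5g3. With each library left out in turn, 339 to 1212 genes were called higher and 568 to 1470 lower, and 0 to 2 members higher and 0 to 35 lower. The same fits gave medians from -0.48 to -0.11 for all members, -0.52 to -0.12 for complex I, -0.51 to -0.10 for complex II, -0.60 to -0.26 for complex III, -0.46 to -0.23 for complex IV, -0.45 to -0.11 for complex V and -0.25 to 0.0011 for assembly factors. Each end of these ranges of medians came from leaving out an sWAT library. In both directions the highest count of genes and the highest count of members came from different fits, so these are not to be set against each other. With either dWAT library left out, the 6 members kept a negative fold change but none was still called. The c ring median was 0.70 without the first sWAT library and 0.32 without the second.

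Replicate numbers are shared by the depots, but the labels do not say that they pair the libraries. Deviations from the depot means correlated at 0.464 between same-numbered libraries over 12797 genes. With a replicate block 2342 genes were called higher and 2384 lower, with 3 members higher and 38 lower. Those 38 were 44.2% of the tested members, against 18.6% of all tested genes called lower in that fit.

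Uncalled genes changed sign. Cox6a1 stood at 0.022 under library totals and 0.11 under quantile normalization, and Cox7a2l at 0.031 under quantile normalization. Over the fits without one library, log2 fold changes ranged from -0.031 to 0.22 for Cox8a, -0.25 to 0.040 for Cox7a2l, -0.50 to 0.23 for Ndufaf1, -0.0052 to 0.34 for Atp5g2, -0.30 to 0.18 for Cox6a1, -0.44 to 0.15 for Sdhc, -0.49 to 0.015 for Sdhd, -0.33 to 0.053 for Cyc1 and -0.58 to 0.012 for Nrf1. On CPM not divided by length, the Atp5g3 share was 51.7% in sWAT, and the Cox4i2 share was 0.280% in dWAT and 0.457% in sWAT. The cause of these changes was not tested. In every library 81 members had at least 100 reads, and the lowest count of a called member was 463. Those with fewer were the low isoforms and, in the assembly factor group, Ndufaf5, Ndufaf6 and Atp5s. The lowest counts of these last genes were 43, 44 and 44 reads, so depth limits them too.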
